A study of Mus musculus with 18 samples.

Results

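Vimentin (Vim), the keratins Krt8, Krt18, Krt7, Krt14 and Krt19, the epithelial surface protein Epcam, the cadherins Cdh1 and Cdh2 and the transcription factor Zeb1 are 10 genes in common use as epithelial or mesenchymal markers. They were chosen by gene name, with every listed position of each gene, and made up 10 of the 19736 genes of the table, 4463 of its 1825851 positions and 8633 of its 4857967 counts. The cells were 4T1, a mouse mammary carcinoma line, transduced with mCherry and Renilla luciferase and kept under puromycin in all groups. The groups were 4T1 WT and the CRISPR knockout clones Snord67KO-1 and Snord67KO-2, which lack the box C/D small nucleolar RNA Snord67, with 3 biologic replicates of each genotype. Each knockout group is a single-cell clone, so that a difference between a clone and 4T1 WT cannot be told apart from differences between clones that were already present. The counts are 3′ ends of reads from ribose oxidation sequencing (RibOxi-seq) of poly(A) RNA, in which fragment ends that carry a 2′-O-methyl group withstand oxidation and are ligated. Only oxidized libraries were analysed here, so the total of a gene follows the amount of its RNA as well as methylation, and these cannot be told apart.

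Epithelial cells hold together through E-cadherin (Cdh1) and carry keratin filaments built from pairs of a type II keratin (Krt7, Krt8) and a type I keratin (Krt18, Krt19, Krt14). Mesenchymal cells have vimentin filaments and often N-cadherin (Cdh2), and in epithelial-mesenchymal transition factors such as Zeb1 repress Cdh1. Carcinoma cell lines frequently carry keratins and vimentin together, and Krt14 marks basal rather than luminal mammary cells.

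Total counts per library ranged from 625093 to 737219 in 4T1 WT, from 491836 to 686776 in Snord67KO-1 and from 212463 to 423278 in Snord67KO-2. Gene totals are given as counts per 1000000 counts of the library (CPM), and 0 counts in a library allow up to 3 counts, or 4.07 CPM in the deepest library and 14.1 CPM in the shallowest, for counting error only. Positions that the table marks as mispriming held 1.38% to 7.22% of the counts in 8 libraries and 17.8% in 4T1 WT replicate 2, which stood apart. The interval of Snord67 (chromosome 2, 91596070 to 91596180, GRCm38) had 1 count over the 9 libraries, in Snord67KO-1 replicate 1, so its loss was not detectable in these libraries of poly(A) RNA. The paper states that snoRNAs mostly go undetected in RNA-seq libraries made with poly(A) selection.

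Before the totals, the single positions that weigh on them are shown, since 1 position held 27.3% of all Vim counts. The bases following a position are the stretch that distinguished marked positions. Over all annotated exon sequence, the most frequent bases after 41126 marked positions were, in order, C (98.6%), T (89.4%), G (87.2%), T (60.1%), A (65.0%) and G (69.2%). At least 4 of these 6 bases followed 97.4% of the marked and 4.51% of 1191952 unmarked exon positions. The 3′ linker for ligation that the paper lists begins with the same 6 bases. The sequences below run 5′ to 3′ on the coding strand of the transcript (GENCODE M21, GRCm38), with the counted position as the last lower-case base before the capitals, and the capitals mark the 6 bases after it.
Vim 13580026: actaacgagtccCTGGAGcgccagat
Vim 13578600: gagatccaggagCTGCAGgcccagat
Vim 13574692: gtggacttctcgCTGGCCgacgccat
Krt18 102031949: gacaccagagttCTGAGGcactgagg
Krt18 102031878: actccatgcaaaCTGTGCagaagaca
Cdh1 106649072: tcaaagtggcgaCAGACGgcaccatc

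The position 13580026 of chromosome 2, in the coding part of exon 6 of the 9 exons of Vim (plus strand), was marked and had 1385 of the 5065 Vim counts. It held 24.9%, 44.4% and 25.0% of the Vim counts in the 3 libraries of 4T1 WT. The shares were 29.3%, 34.5% and 15.6% for Snord67KO-1, and 23.8%, 28.5% and 27.4% for Snord67KO-2. The share was highest in 4T1 WT replicate 2, and the shares of the 3 genotypes overlapped. Position 13578600 in exon 4 (chr2:13578589-13578614 is shown) was also marked and had 118 counts, and position 13574692 in exon 1 (chr2:13574681-13574706) was unmarked with 93 counts. The highest position of Krt18 lay in the coding part of exon 7 of 7 (chr15:102031938-102031963, plus strand), was unmarked and had 299 of 1688 counts, and a neighbor in the same exon (chr15:102031867-102031892) had 112. In 4T1 WT replicate 2 these 2 Krt18 positions held 63.5% of the Krt18 counts, against 27.2% and 13.6% in the other WT libraries. The highest Cdh1 position, in exon 3 of 16 (chr8:106649061-106649086, plus strand), was unmarked and had 61 of 395 counts, 23 of them in 4T1 WT replicate 2. Unmarked positions can still resemble marked ones. Each of the 2 Krt18 positions is followed by at least 4 of the 6 bases above, and the bases after the Cdh1 capitals match the linker. Leaving out marked positions therefore keeps these positions, and whether they arose as the marked ones did was not tested. No position of Krt8, Krt7 or Epcam had more than 19, 8 or 3 counts.

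Of the 2092 positions that reached 10 counts in 3 or more libraries, 5 lay in the markers, namely the 3 of Vim and the first 2 of Krt18 shown above. None of the 5 passed an adjusted p of 0.05 in edgeR's quasi-likelihood test of the averaged clones against 4T1 WT, where 0.0478% of all positions did, and none passed in either clone. The smallest unadjusted p of the average was 0.0033, at Vim 13580026, and it alone of the 5 was under 0.05. In DESeq2 this position passed in Snord67KO-1 (log2 fold change 2.78; adjusted p = 0.0020), where 0.621% of all positions did. For the averaged clones in edgeR its log2 fold change was 1.87 ± 0.49 (SE), close to that of the whole gene below. With the counts on the rest of Vim as an offset it was -0.40 ± 0.41 (SE; adjusted p = 0.587). Without 4T1 WT replicate 2 the test of the average by count passed at Vim 13580026 (log2 fold change 2.65 ± 0.42; adjusted p = 0.0424), where 0.113% of all positions did. With that offset, which compares a position with the rest of its gene, none of the 5 passed, while 3 of them had an unadjusted p under 0.05 and a negative log2 fold change for the average. They were Krt18 102031878 (-2.75 ± 0.94), Vim 13574692 (-3.19 ± 1.12) and Vim 13578600 (-1.55 ± 0.67), each of which had most of its 4T1 WT counts in replicate 2.

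**Figure D1:**
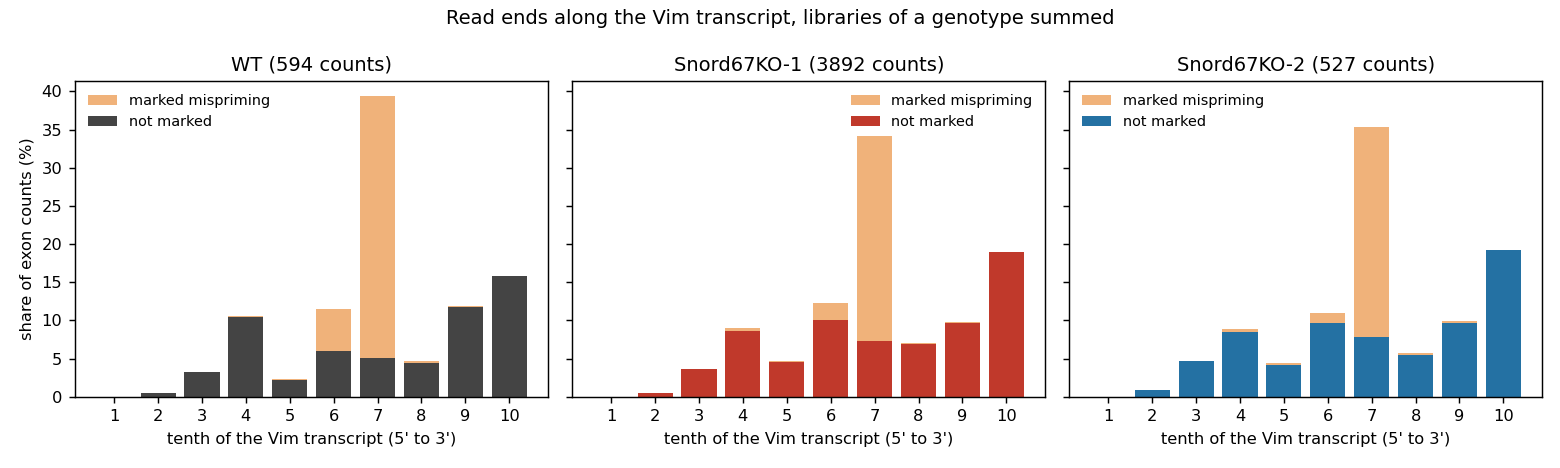
Share of the Vim exon counts (y axis, %) in each of 10 equal parts of the 2193-base transcript from the 5′ to the 3′ end (x axis), with the libraries of a genotype summed and the part at marked positions in orange. The profile has its peak in part 7 in all 3 genotypes (39.4%, 34.1% and 35.3% of the counts), mostly from marked positions.

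Along the whole Vim transcript the ends were spread over 1177 positions with a count, and 21 of its 1353 listed positions were marked. Marked positions held 30.5%, 53.2% and 26.7% of the Vim counts in 4T1 WT. In the Snord67KO-1 libraries they held 33.1%, 38.5% and 17.5%, and in those of Snord67KO-2 24.8%, 30.6% and 30.8%. The 3 genotypes overlapped, and the difference from 4T1 WT was -7.09 percentage points for Snord67KO-1 and -8.08 for Snord67KO-2. Permuting the libraries gave a two-sided exact p of 0.6 in both cases, and since 3 against 3 libraries cannot give a p under 0.1, this test could not have passed the threshold and does not show that the shares were alike. Marked positions held 3.68% of the counts of Krt8, 5.04% of Krt18, 7.03% of Krt7, 8.35% of Cdh1 and none of the 157 counts of Epcam.

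Vimentin, the type III filament protein of mesenchymal cells, had by far the most counts of the 10 genes and was higher in both clones. The gene Vim (ENSMUSG00000026728.9) lies on chromosome 2, 13573927 to 13582826. Its total was 267, 445 and 186 CPM in the libraries of 4T1 WT, 2207, 2354 and 1881 CPM in Snord67KO-1, and 475, 523 and 560 CPM in Snord67KO-2. Every Snord67KO-1 library was above every other library, and every Snord67KO-2 library was above every WT library, the nearest being 4T1 WT replicate 2. Over all genes tested, the libraries did not overlap in 30.0% of genes between Snord67KO-1 and 4T1 WT, in 20.5% between Snord67KO-2 and 4T1 WT and in 31.3% between the clones. Without marked positions the WT libraries came closer together, with a mean of 177 ± 37.0 CPM (SD, n = 3 here and in the clones). The mean was then 1492 ± 53.9 CPM for Snord67KO-1 and 370 ± 15.8 CPM for Snord67KO-2.

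In the fit over the 6291 genes that reached 10 counts in 3 or more libraries (edgeR's quasi-likelihood test, Benjamini-Hochberg adjustment over all of them), Vim rose by a log2 fold change of 2.77 ± 0.23 (SE; adjusted p = 7.77e-07) in Snord67KO-1 and 1.10 ± 0.22 (adjusted p = 0.0102) in Snord67KO-2. The clones also differed from each other, by -1.66 ± 0.22 for Snord67KO-2 against Snord67KO-1 (adjusted p = 3.22e-04). Without marked positions the log2 fold changes were 2.83 and 1.12. The call in Snord67KO-2 was lost without any of the 3 Snord67KO-2 libraries, with adjusted p of 0.0508 without replicate 1, 0.0674 without replicate 2 and 0.0526 without replicate 3, and with library totals in place of TMM scaling (log2 fold change 0.80; adjusted p = 0.164).

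**Figure D2:**
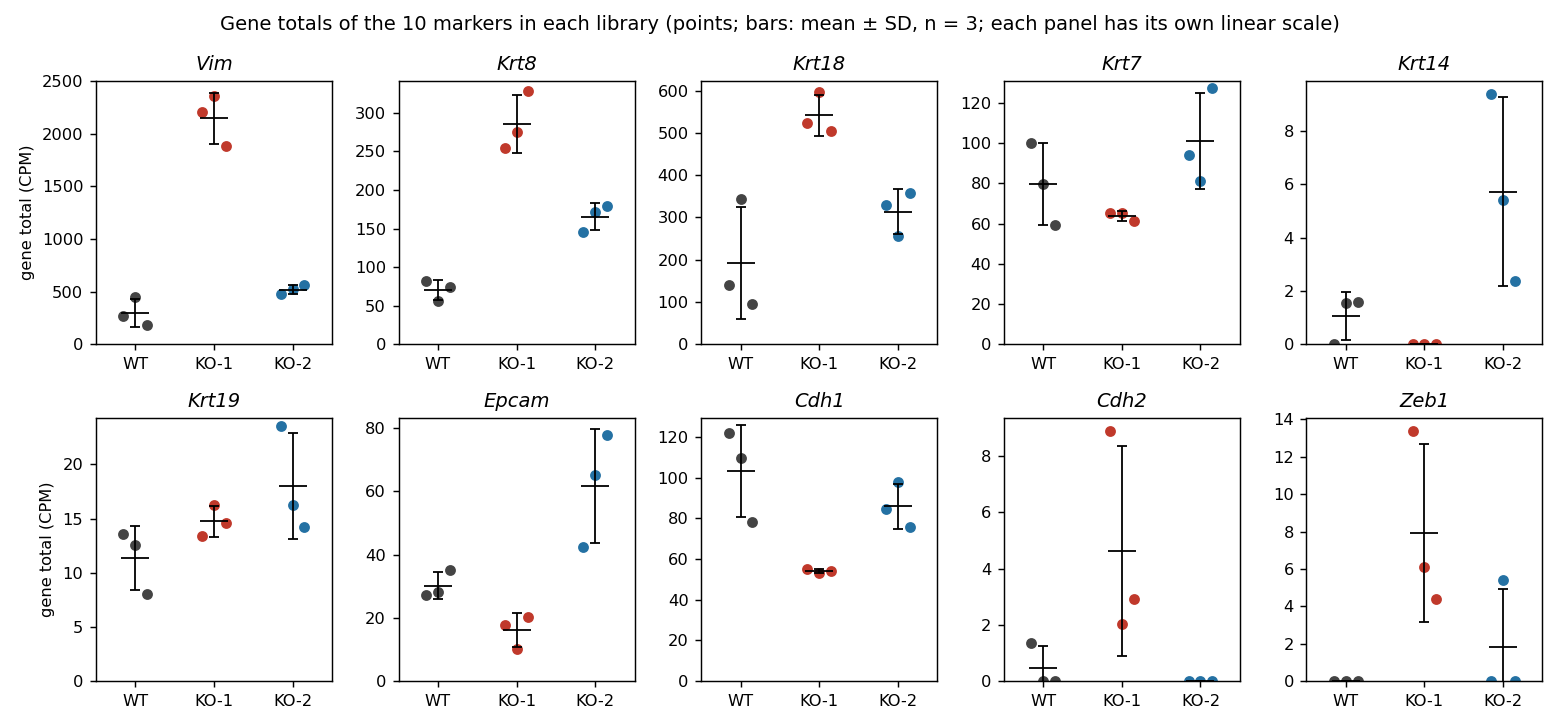
Gene totals (y axis, CPM, a linear scale of its own in each panel) of the 10 markers in each library (points) of 4T1 WT, Snord67KO-1 (KO-1) and Snord67KO-2 (KO-2), with the mean ± SD of n = 3 as bars. Vim, Krt8 and Krt18 are highest in the 3 Snord67KO-1 libraries, Cdh1 and Epcam are lowest there, and Cdh2 and Zeb1 stay under 14 CPM throughout.

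Krt8 and Krt18, the partner keratins of simple epithelia, rose in both clones along with Vim. Krt8 (ENSMUSG00000049382.10; chromosome 15, 101996698 to 102004482, minus strand) had 81.4, 56.3 and 73.6 CPM in 4T1 WT, 254, 274 and 328 CPM in Snord67KO-1, and 146, 171 and 180 CPM in Snord67KO-2. The 3 genotypes did not overlap, while single pairs of genotypes did not overlap in 20.5% to 31.3% of all genes tested. No share for all 3 at once is given. The log2 fold change was 1.85 ± 0.25 (SE; adjusted p = 1.71e-04) in Snord67KO-1 and 1.44 ± 0.27 (adjusted p = 0.0066) in Snord67KO-2, and the difference between the clones, -0.41 ± 0.25, did not pass (adjusted p = 0.414). Leaving out Snord67KO-2 replicate 2 took the Krt8 call of that clone to an adjusted p of 0.0515.

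Krt18 (ENSMUSG00000023043.7; chromosome 15, 102028180 to 102032027, plus strand), the type I partner of Krt8, had 140, 343 and 94.4 CPM in 4T1 WT, 524, 596 and 504 CPM in Snord67KO-1, and 329, 255 and 357 CPM in Snord67KO-2. Snord67KO-1 was above all other libraries, while 4T1 WT replicate 2 lay within the range of Snord67KO-2. Outside the 2 highest positions, Krt18 was 81.6 to 125 CPM in 4T1 WT, 402 to 476 CPM in Snord67KO-1 and 233 to 301 CPM in Snord67KO-2, and the genotypes did not overlap. These positions were picked from the same counts and held 63.5% of Krt18 in 4T1 WT replicate 2, so leaving them out lowers that library most. The lack of overlap is thus no separate support, and no share of all genes treated this way is given. The log2 fold change of the full total was 1.46 ± 0.27 (SE; adjusted p = 0.0016) in Snord67KO-1 and 1.05 ± 0.28 (adjusted p = 0.0492) in Snord67KO-2. The second call was lost in 7 of 13 other settings of the fit (adjusted p of 0.0529 to 0.325) and in 6 of the 9 fits that left out 1 library (0.0746 to 0.185). Without 4T1 WT replicate 2 the log2 fold change in Snord67KO-2 was 1.48 (adjusted p = 1.88e-04).

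Reads of both keratins can be shared with near-identical copies. For 44.7% of the Krt8 exon counts and 16.0% of those of Krt18, the 25 bases that end at the counted position also occur in a transcript of another gene, such as Krt8-ps, Krt5 and Krt75 for Krt8 and Gm5200 for Krt18. The share was 4.48% for Krt7 and 0.778% for Vim, and it was 0 for Epcam, Cdh1 and Krt19. At exon positions without such sharing, Krt8 was 38.4 ± 11.1 CPM (SD, n = 3 here and in the clones) in 4T1 WT, 159 ± 19.8 CPM in Snord67KO-1 and 89.8 ± 12.2 CPM in Snord67KO-2. With these totals, in a setting added after the data were examined, the Krt8 log2 fold changes were 1.88 and 1.42 and stayed past the threshold in both clones, while that of Krt18 in Snord67KO-2 did not (0.96; adjusted p = 0.0991).

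Of the remaining keratins, only Krt7 reached the count minimum. Krt7 (ENSMUSG00000023039.17; chromosome 15, 101411043 to 101430313), a type II keratin of simple glandular epithelia, had 100, 79.8 and 59.2 CPM in 4T1 WT, 65.3, 65.1 and 61.2 CPM in Snord67KO-1, and 94.1, 81.4 and 128 CPM in Snord67KO-2. The WT libraries overlapped with both clones, and the clones did not overlap with each other. Neither change from 4T1 WT passed (log2 fold change -0.46 ± 0.24, adjusted p = 0.199, in Snord67KO-1, and 0.57 ± 0.24, adjusted p = 0.212, in Snord67KO-2), whereas Krt7 was higher in Snord67KO-2 than in Snord67KO-1 by 1.03 ± 0.25 (adjusted p = 0.0286). This call was lost when any single library of either clone was left out (adjusted p of 0.068 to 0.16), with library totals (0.204), in DESeq2 (0.104) and over exon positions alone (0.0851).

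Krt19, the smallest type I keratin, had 5 to 10 counts in every library and did not reach the count minimum. Its level was 11.4 ± 2.96 CPM (SD, n = 3 here and in the clones) in 4T1 WT, 14.7 ± 1.46 CPM in Snord67KO-1 and 18.0 ± 4.91 CPM in Snord67KO-2. The Snord67KO-2 libraries lay above those of 4T1 WT, as for 20.5% of the genes tested. With a minimum of 5 counts Krt19 was tested and did not pass in either clone (adjusted p = 0.822 for Snord67KO-1 and 0.461 for Snord67KO-2 in edgeR). Krt14, the basal keratin, had 2 counts in 4T1 WT, none in Snord67KO-1 and 5 in Snord67KO-2. Both 4T1 WT and Snord67KO-1 were under the 3 counts that a group at 0 allows, and 4 of its 7 counts ended in sequence shared with Krt16, Krt42 or Krt17. Among 12 other keratins fixed as a list (Krt5, Krt10, Krt80 and others) none reached the count minimum, and their summed level was 9.50 to 15.7 CPM in 4T1 WT, 8.91 to 16.0 CPM in Snord67KO-1 and 4.71 to 21.3 CPM in Snord67KO-2.

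Cdh1, the adhesion molecule of epithelial junctions, fell in Snord67KO-1 and not detectably in Snord67KO-2. The gene (ENSMUSG00000000303.12; chromosome 8, 106603351 to 106670246, plus strand) had 122, 110 and 78.4 CPM in 4T1 WT, 54.9, 52.9 and 53.9 CPM in Snord67KO-1, and 84.7, 97.6 and 75.6 CPM in Snord67KO-2. All 3 Snord67KO-1 libraries were below all others, and Snord67KO-2 overlapped with 4T1 WT. The log2 fold change was -1.07 ± 0.24 (SE; adjusted p = 0.0052) in Snord67KO-1 and -0.03 ± 0.24 (adjusted p = 0.977) in Snord67KO-2. Snord67KO-2 exceeded Snord67KO-1 by 1.04 ± 0.26 (adjusted p = 0.0299). That difference was lost in limma-voom and DESeq2 (adjusted p = 0.0519 and 0.108), with library totals (0.179) and without either Snord67KO-2 replicate 1 or 2 or any Snord67KO-1 library (0.0821 to 0.172).

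Epcam (ENSMUSG00000045394.9; chromosome 17, 87635979 to 87651129, plus strand), a homophilic adhesion molecule of epithelial cells, had the largest log2 difference between the clones of the tested markers with TMM scaling. With library totals that of Vim was larger in size (-2.04, beside 1.93 for Epcam). Epcam had 27.1, 28.2 and 35.2 CPM in 4T1 WT, 17.8, 10.2 and 20.4 CPM in Snord67KO-1, and 42.4, 65.1 and 78.0 CPM in Snord67KO-2. The 3 genotypes did not overlap, with Snord67KO-1 lowest and Snord67KO-2 highest. Single pairs of genotypes did not overlap in 20.5% to 31.3% of all genes tested, and no share for all 3 at once is given. Its counts were few, 60, 31 and 66 per genotype. The log2 fold change was -0.999 ± 0.35 (SE; adjusted p = 0.0543) in Snord67KO-1, which did not pass, and 1.28 ± 0.31 (adjusted p = 0.0320) in Snord67KO-2. The fall in Snord67KO-1 passed without marked positions (adjusted p = 0.0150), at a minimum of 5 counts (0.0461), without a filter (0.0312) and without highest positions (0.0113). It also passed with capped counts (0.0054), a replicate block (0.0352), no shared 25 bases, and without 4T1 WT replicate 2 (0.0257). It did not pass in the other fits, among them DESeq2 (0.164) and library totals (0.138). Snord67KO-2 exceeded Snord67KO-1 by 2.28 ± 0.34 (adjusted p = 0.0013), a call that was kept in all 13 other settings and in all 9 fits without a library. The increase over 4T1 WT in Snord67KO-2 was lost in DESeq2 (adjusted p = 0.0683), with library totals (0.136) and in 6 of the 9 fits without a library (0.0516 to 0.155).

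**Figure D3:**
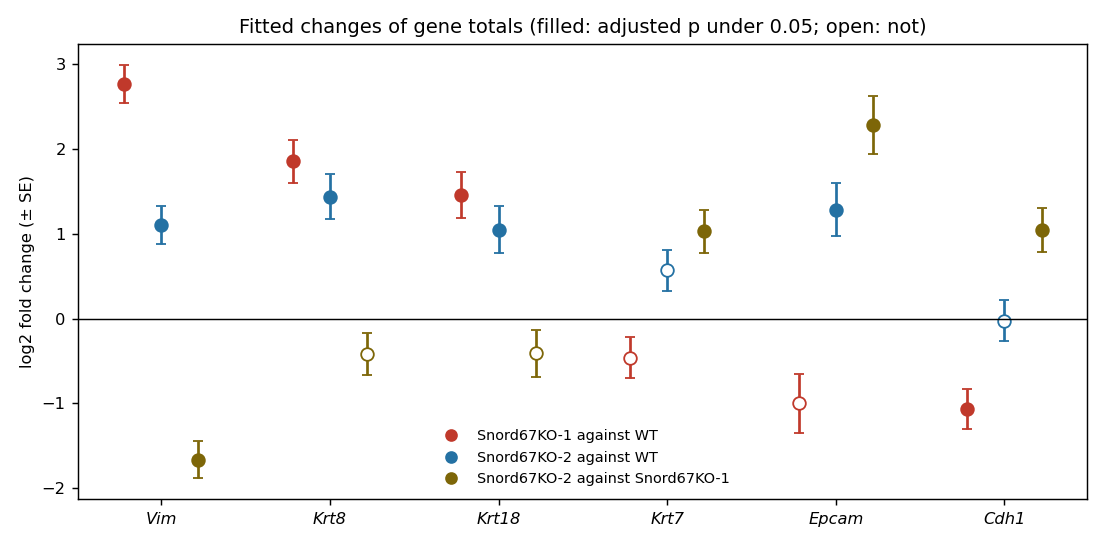
Log2 fold change ± SE (y axis) of the 6 markers that passed the count minimum (x axis) for each clone against 4T1 WT and for Snord67KO-2 against Snord67KO-1, with filled points past an adjusted p of 0.05 in edgeR. Vim, Krt8 and Krt18 lie above 0 in both clones, and Epcam and Krt7 lie on opposite sides of 0.

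Of the 10 markers, 6 passed the count minimum and could be tested. In Snord67KO-1, 3 rose (Vim, Krt8, Krt18) and 1 fell (Cdh1), with 18.2% of all genes tested called (10.0% higher and 8.17% lower). In Snord67KO-2, 4 rose (Vim, Krt8, Krt18, Epcam) and none fell, with 3.18% of all genes called (2.43% higher and 0.747% lower). For the average of both clones, Vim (log2 fold change 1.94 ± 0.20), Krt8 (1.65 ± 0.24) and Krt18 (1.25 ± 0.25) rose and none fell, against 12.1% of all genes called (6.20% higher and 5.87% lower). Between the clones 4 differed, with Epcam, Cdh1 and Krt7 higher and Vim lower in Snord67KO-2, against 3.99% of all genes called (1.80% higher and 2.19% lower). The comparisons with 4T1 WT share their WT libraries. The median log2 fold change of the 6 tested markers was 0.50 in Snord67KO-1 and 1.08 in Snord67KO-2, beside -0.04 and -0.03 over all genes. Library totals in place of TMM scaling moved the median of all genes by 0.12 in Snord67KO-1 and by -0.24 in Snord67KO-2, and left 4 and 1 of the markers called. The 1 marker in Snord67KO-2 was Krt8. The Snord67KO-1 calls of Vim, Krt8, Krt18 and Cdh1 were kept in all 13 other settings and in all 9 fits that left out 1 library. Library totals also moved the split of all calls, to 548 higher and 138 lower in Snord67KO-1 and to 30 higher and 2 lower in Snord67KO-2, from 632 and 514 and from 153 and 47.

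Ratios of markers within a library do not depend on the scaling of that library. No share of all gene pairs without overlap is given, so the lack of overlap below has no background beside it. The ratio of Vim to Cdh1 counts was 2.19 to 4.06 in 4T1 WT, 34.9 to 44.5 in Snord67KO-1 and 5.36 to 7.41 in Snord67KO-2, and it did not overlap between the genotypes with or without marked positions. The ratio of Krt8 to Krt18 was 0.583, 0.164 and 0.780 in 4T1 WT, where replicate 2 stood lowest, and 0.443 to 0.670 in the 6 clone libraries, within the range of 4T1 WT. The ratio of Krt7 to Krt8, both type II keratins, was 0.804 to 1.42 in 4T1 WT, 0.187 to 0.257 in Snord67KO-1 and 0.476 to 0.711 in Snord67KO-2, without overlap. The ratio of Epcam to Cdh1 was 0.222 to 0.449 in 4T1 WT and 0.192 to 0.378 in Snord67KO-1, which overlapped, and 0.500 to 1.03 in Snord67KO-2, which lay above both.

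**Figure D4:**
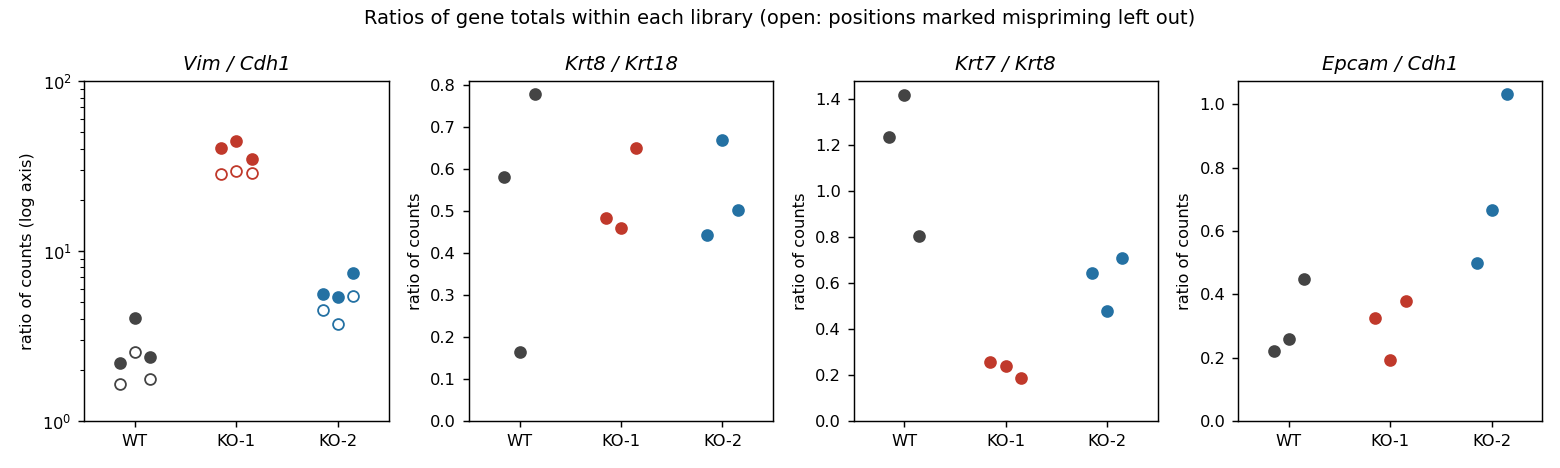
Ratios of gene totals within each library (points; y axis, a log axis for Vim to Cdh1 and linear axes from 0 for the others) in 4T1 WT, Snord67KO-1 (KO-1) and Snord67KO-2 (KO-2), with open points for totals without marked positions. Vim to Cdh1 lies between 34.9 and 44.5 in Snord67KO-1 and at or under 7.41 elsewhere, and Krt7 to Krt8 is lowest in Snord67KO-1.

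To compare levels between genes, exon counts were divided by transcript length and given as CPM per kilobase. In 4T1 WT the order was Vim (136 ± 60.6, SD, n = 3), Krt18 (131 ± 92.2), Krt8 (36.0 ± 6.54), Cdh1 (21.7 ± 3.53), Krt7 (18.4 ± 3.72), Epcam (14.6 ± 2.40) and Krt19 (7.21 ± 1.88). The libraries of Vim and Krt18 overlapped, as did those of Cdh1 and Krt7 and of Krt7 and Epcam. In Snord67KO-1, Vim (969 ± 113), Krt18 (366 ± 33.9), Krt8 (144 ± 19.7) and Krt7 (14.3 ± 0.686) followed each other without overlap, and Cdh1 (9.55 ± 1.02), Krt19 (8.92 ± 0.394) and Epcam (7.09 ± 3.01) overlapped. In Snord67KO-2, Vim (235 ± 19.4) and Krt18 (213 ± 36.1) overlapped and Krt8 (83.2 ± 8.07) came next, followed by Epcam (29.9 ± 8.75), Krt7 (23.4 ± 6.40) and Cdh1 (18.6 ± 2.44), of which each overlapped with its neighbor. All Krt7 counts on its 4094-base transcript lay in the first 4 of 10 equal parts, so its level per length depends on the transcript chosen.

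The transcription factor Zeb1 and the mesenchymal cadherin Cdh2 had almost no counts in exons. Zeb1 (chromosome 18, 5591860 to 5775467), a zinc-finger repressor of Cdh1, had 0 counts in the 3 WT libraries, 9, 3 and 3 counts in Snord67KO-1 and 0, 2 and 0 counts in Snord67KO-2, and 16 of the 17 counts lay outside exons. Over the libraries of a group the Snord67KO-1 level of 8.10 CPM was 5.40-fold what 3 counts in 4T1 WT would give. This ratio makes no allowance for counting error in the few Snord67KO-1 counts, so it is not a lower bound. Without a filter on low counts Zeb1 passed in Snord67KO-1 (adjusted p = 0.0055 in edgeR). In that fit 2056 of 19404 genes were called in Snord67KO-1, and the median log2 fold change of all genes was 0.37. Cdh2 (chromosome 18, 16588877 to 16809246), N-cadherin, had 1 count in 4T1 WT, 9 counts in Snord67KO-1 and 0 counts in Snord67KO-2, all 10 of them outside exons. It did not pass in that fit (adjusted p = 0.205). By contrast, 89.6% to 99.2% of the counts of Vim, Krt8, Krt18, Krt7, Krt19, Epcam and Cdh1 lay in an exon, beside 43.7% over all genes but Rn45s.

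Markers of other cell types were low and also highest in Snord67KO-1. Of 22 fibroblast, immune and endothelial markers, 20 were in the table, and their summed level was 15.7 to 25.8 CPM in 4T1 WT, 48.1 to 147 CPM in Snord67KO-1 and 0 to 23.6 CPM in Snord67KO-2. Of the 41, 163 and 16 counts, 14, 36 and 2 lay in exons. The defining markers Lum and Thy1 had no count, Col1a1, Col3a1, Dcn and Lyz2 had 4 or fewer, and Pdgfra had the most exon counts, 18 of its 24 counts in Snord67KO-1. Counts outside exons made up 45.9% to 63.8% of all gene counts but those of Rn45s in 4T1 WT, 53.6% to 56.6% of those in Snord67KO-1, and 55.2% to 60.5% for Snord67KO-2. The part of these values in the Zeb1 and Cdh2 counts was not tested. The 4T1 line had counts of Krt8, Krt18, Krt7, Epcam and Cdh1 in all 9 libraries, and its basal markers were few, with 11 counts of Krt5 and 42 of Trp63, 4 of the latter in exons.

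Among the other EMT transcription factors, 3 of 10 reached the count minimum and none was called in either clone, beside 18.2% of all genes in Snord67KO-1 and 3.18% in Snord67KO-2. In edgeR 1 of the 3 had an unadjusted p under 0.05 in Snord67KO-1 and 0 in Snord67KO-2, and DESeq2 and limma-voom called 0 in both. Their median log2 fold change was 0.32 in Snord67KO-1 and -0.28 in Snord67KO-2. The factors of this list with the most counts were Tcf4 (271), Tcf3 (173) and Zeb2 (109), of which 188, 149 and 97 lay in exons. Zeb2 came to 18.0 CPM for 4T1 WT (36 counts), 32.4 CPM for Snord67KO-1 (60 counts) and 12.9 CPM for Snord67KO-2 (13 counts). With the genotypes in the same order, Tcf4 had 51.5, 72.9 and 32.9 CPM, and Tcf3 had 39.0, 35.6 and 28.9 CPM. Snai2, which encodes Slug, had no count. Twist1 had 9.99 CPM over the 4T1 WT libraries, 16.2 CPM over those of Snord67KO-1 and 15.9 CPM over those of Snord67KO-2, from 16 to 30 counts. Twist2 and Prrx1 had 29 and 35 counts in Snord67KO-1 beside 3 and 3 at a similar depth in 4T1 WT. Of these, 1 and 6 in Snord67KO-1 lay in exons. All the factors named here were singled out after their values were seen. In the TGF-beta pathway, 2 of 11 tested genes rose in Snord67KO-1 and none was called in Snord67KO-2, with median log2 fold changes of -0.03 and 0.28. In Snord67KO-2, 2 of the 11 had an unadjusted p under 0.05, and DESeq2 and limma-voom called 0. Both genes that rose bind TGF-beta outside the cell. Ltbp1, which holds latent TGF-beta in the matrix, rose by a log2 fold change of 1.09 ± 0.26 (SE; adjusted p = 0.0085), and the coreceptor Tgfbr3 by 1.88 ± 0.43 (adjusted p = 0.0064), with 17 of its 54 Snord67KO-1 counts in exons. Tgfbr3 had 14 counts in 4T1 WT and 7 in Snord67KO-2, and it reached the count minimum only through Snord67KO-1. Its p is therefore conditioned on the group where it is high.

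Junction and polarity genes fell in 3 of 17 tested genes in Snord67KO-1 and rose in none, and none was called in Snord67KO-2, beside 18.2% of all genes called in Snord67KO-1 (8.17% lower) and 3.18% in Snord67KO-2. The median log2 fold changes were -0.08 and 0.02. In Snord67KO-2, 6 of the 17 had an unadjusted p under 0.05 in edgeR, and DESeq2 and limma-voom called 0. The tight-junction claudin Cldn4 had 139 ± 82.6 CPM (SD, n = 3 here and in the clones) in 4T1 WT, and its 3 counts in Snord67KO-1 came to 1.47 ± 1.48 CPM (adjusted p = 3.82e-07). It had 59.9 ± 16.8 CPM in Snord67KO-2 (log2 fold change -0.87 ± 0.31; adjusted p = 0.128). The tight-junction receptor Cxadr fell by 1.56 ± 0.20 on the log2 scale in Snord67KO-1 (adjusted p = 1.2e-04) and had -0.33 ± 0.21 in Snord67KO-2 (adjusted p = 0.419). Both were higher in Snord67KO-2 than in Snord67KO-1 (adjusted p = 1.63e-05 for Cldn4 and 0.0056 for Cxadr), as were Cdh1 and Epcam.

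Of 10 tested epithelial regulators and surface proteins, 2 rose and 1 fell in Snord67KO-1 and 1 rose in Snord67KO-2, beside 18.2% and 3.18% of all genes called. The median log2 fold changes were -0.16 and 0.09. The genes that rose in Snord67KO-1 were Itga6 (1.31 ± 0.25, SE; adjusted p = 0.0016) and Itgb4 (1.72 ± 0.36; adjusted p = 0.0038), which pair as the integrin of hemidesmosomes. The gene that fell there was St14 (-1.41 ± 0.33; adjusted p = 0.0077), a membrane serine protease of epithelia, named after its values were seen. Among other filament proteins and linkers 1 of 5 tested genes was called in each clone, beside the same shares of all genes. It was the nuclear lamin Lmna, with 106 ± 32.3 (SD, n = 3) CPM in 4T1 WT, 337 ± 31.0 CPM in Snord67KO-1 and 206 ± 18.5 CPM in Snord67KO-2 (log2 fold change 1.55, adjusted p = 1.2e-04, and 1.22, adjusted p = 0.0037).

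Mesenchymal proteins changed in both directions. Of 16 tested genes, 4 rose and 7 fell in Snord67KO-1 (median log2 fold change -0.14), and 4 rose and none fell in Snord67KO-2 (median 0.18), beside 18.2% of all genes called in Snord67KO-1 (10.0% higher and 8.17% lower) and 3.18% in Snord67KO-2. DESeq2 called 7 of the 16 in Snord67KO-1 in place of 11, and 5 in Snord67KO-2. The 7 that fell in Snord67KO-1, named after their values were seen, were the matricellular genes Cyr61 (log2 fold change -2.54) and Ctgf (-2.26), smooth muscle actin Acta2 (-1.63), the actin-linking Msn (-1.13), the actin-binding Tpm1 (-0.76) and Cald1 (-0.73), and the cadherin Cdh11 (-0.70), with adjusted p of 3.73e-04 to 0.0414. The genes described next are the 2 with the smallest p in each clone, all of which rose. S100a4, a calcium-binding protein of motile cells, followed the order of Vim, with 9.85 ± 3.06 (SD, n = 3) CPM in 4T1 WT, 270 ± 28.1 CPM in Snord67KO-1 and 28.9 ± 3.33 CPM in Snord67KO-2. Its log2 fold change was 4.61 ± 0.27 (adjusted p = 1.17e-08) in Snord67KO-1 and 1.75 ± 0.35 (adjusted p = 0.0102) in Snord67KO-2. The matrix protease Mmp3 rose by a log2 fold change of 3.41 ± 0.30 (adjusted p = 2.05e-06) in Snord67KO-1 and 3.67 ± 0.31 (adjusted p = 2.02e-06) in Snord67KO-2. The gelatinase Mmp9 rose in Snord67KO-2 (3.42 ± 0.41; adjusted p = 1.2e-04) and had -0.01 ± 0.53 in Snord67KO-1 (adjusted p = 0.997), and the clones differed by 3.43 ± 0.41 (adjusted p = 1.28e-04). S100a4 had 20 counts in 4T1 WT and 29 in Snord67KO-2, and it reached the count minimum only with the Snord67KO-1 libraries. Mmp3 had 24 counts in 4T1 WT and reached the minimum only through the clones. Mmp9 had 13 counts in 4T1 WT and 13 in Snord67KO-1, and it reached the minimum only through Snord67KO-2. The p values of these genes are therefore conditioned on the groups where they are high.

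As a description, the genes with at least 50 counts in each library whose log2(CPM + 1) over the 9 libraries was most like that of Vim were Rps3a1 (Pearson's r = 0.980), Mapkap1 (0.974) and Pde4d (0.955), out of 164 compared. For Krt18 they were Mapkap1 (0.975), Ubb (0.954) and Gm1821 (0.954), and for Krt8 they included Coro2a (0.991) and S100a6 (0.991). The libraries form 3 genotype groups and share depth and marked share, and these values carry no test.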

How the data were processed

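The 9 oxidized RibOxi-seq libraries were used, and the 9 control samples were not analysed here. The authors trimmed reads with cutadapt, merged pairs with pear, mapped them to a mouse index (the submitters' processing notes name STAR and mm10), and deposited whole-number counts of read 3′ ends per position, not normalized. The counts carry no molecular identifiers, so floors cover counting error only, and the mispriming column is not defined in the sources used here. Gene models and sequences came from GENCODE M21 (GRCm38), since 98.6% of the positions whose gene name matched fell within its bounds.

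Position counts were summed per gene. Genes that reached 10 counts in 3 or more libraries were tested with edgeR's quasi-likelihood test over all 9 libraries, TMM normalization and Benjamini-Hochberg adjustment (threshold 0.05), as the study's methods state no test for these counts. A gene can reach this minimum through a single genotype, as Mmp9, Tgfbr3 and S100a4 did, or through the clones alone, as Mmp3 did. The counts of called genes per list include such genes. The 4 contrasts were each clone, their average, and clone against clone. Alternatives changed the scaling, filter, tool (DESeq2, limma-voom), positions summed, replicate block and libraries, and 1 was added after the data were examined, which summed marker positions with no shared 25 bases. The fits were tested on simulated data, and of 200 genes changed 2-fold and 4-fold in both clones 29.0% and 93.0% were recovered for the average contrast (6291 genes). Replicates of a genotype differed by more than sampling noise (chi-square per degree of freedom 1.28 to 12.4). Same-numbered libraries of different genotypes did not deviate together in every pair (r of -0.16 to 0.35, beside -0.40 to 0.20 for different numbers). The numbers were therefore not taken to pair them in the main fit. The highest r, 0.35 and 0.30, were those of replicates 2 and 3 between 4T1 WT and Snord67KO-1, and a fit with a replicate block is given below. Total counts were 212463 to 737219 per library, and Snord67KO-2 was the shallowest genotype. Besides the markers, from each gene list up to 2 genes with the smallest p per clone among those called were named. Some items that these rules select are not reported here. The members, the lists and these rules were chosen with earlier results of these data known. R 4.3.3, edgeR 4.0.16, limma 3.58.1 and DESeq2 1.42.0 were used, with Python 3.11.15.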

Additional observations from a re-analysis of the deposited data

Results flagged for a closer look

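The effects of the clones, each against the same 4T1 WT libraries, differed between Snord67KO-2 and Snord67KO-1 for 4 of the 6 markers tested, by the contrast of the clones in edgeR (adjusted p under 0.05, as for 3.99% of all genes). Vim was lower in Snord67KO-2, with a log2 difference of -1.66 (adjusted p = 3.22e-04), and lower in 3 of 3 libraries. Epcam was higher in Snord67KO-2 by 2.28 (adjusted p = 0.0013), Cdh1 by 1.04 (adjusted p = 0.0299) and Krt7 by 1.03 (adjusted p = 0.0286), each with all 3 libraries above all 3 of Snord67KO-1. The libraries of the clones did not overlap, in either direction, in 31.3% of all genes tested. The adjusted p over the fits that left out 1 library was 6.36e-07 to 0.0096 for Vim, 1.15e-04 to 0.0236 for Epcam, 0.0122 to 0.172 for Cdh1 and 0.0086 to 0.16 for Krt7.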

How the results depend on the processing

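The number of markers called was 4 to 6 for Snord67KO-1 and 2 to 4 for the average over all alternatives. For Snord67KO-2 against 4T1 WT it was 4. It was 3 without marked positions, with RLE factors, without Rn45s, with a minimum of 5 counts, in DESeq2, over exons and at positions with no shared 25 bases, and 1 with library totals in place of TMM. Leaving out 1 library gave 0 to 4, with 0 without Snord67KO-2 replicate 2, 1 without replicate 1 or 3 of that clone, and 2 without 4T1 WT replicate 1 or Snord67KO-1 replicate 1. Between the clones 4 differed, with 3 left by limma-voom and over exons, 2 left by library totals and by DESeq2, and 2 to 4 left without a library. Marker positions called for the average were 0, and 1 without 4T1 WT replicate 2. Changes of direction occurred for log2 fold changes near 0 that were called in no setting. Cdh1 in Snord67KO-2 was -0.03, 0.013 at positions with no shared 25 bases, and -0.17 to 0.16 without a library. Krt7 in the average was 0.05, -0.057 without a filter, -0.021 without each gene's highest position, -0.12 with counts capped at 1 per position, and -0.11 to 0.28 without a library. Epcam in the average was 0.14, -0.0070 without marked positions, -0.0036 without highest positions, -0.034 with capped counts, and -0.052 to 0.43 without a library. Over all genes, the number called in Snord67KO-2 was 200, and 435 without a filter, 384 without highest positions, 409 with capped counts and 32 with library totals. In Snord67KO-1 it was 1146, and 2056 without a filter, 575 in DESeq2, 686 with library totals and 721 over exons. The causes were not tested.

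With a replicate block, 5, 4, 3 and 4 markers were called for Snord67KO-1, Snord67KO-2, the average and between the clones, with Epcam added in Snord67KO-1 (adjusted p = 0.0352), and 1266, 278, 869 and 274 genes. Depth was lowest in Snord67KO-2, where of genes changed 2-fold and 4-fold in simulated data 10.5% and 78.5% were recovered.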
